A study of Rattus norvegicus with 9 samples.

Results

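The respiratory chain subunit genes are a list of 44 nuclear genes: 43 encode subunits of complexes I to V or cytochrome c, and Ppargc1a encodes the transcriptional coactivator PGC-1alpha. A gene counted as measured when the array annotation gave it a probe set of its own, and where it had several, the one with the highest mean signal was used. By this rule 40 of the 44 genes were measured (39 subunits and Ppargc1a), among 14217 genes with a probe set of their own. Ndufa10, Uqcrb, Cycs and Cox7a2 had only probe sets that are shared with other genes, so no value is given for them. All values are log2 signals of the deposited Affymetrix arrays, and a difference of 1 on this scale is a 2-fold change.

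RNA was measured in 3 groups of 3 arrays from female SD (Sprague-Dawley) rats. Bladder transitional cell carcinoma had been induced in the tumor-bearing rats, which were 10 weeks old, by instilling 20 mg/ml MNU (N-methyl-N-nitrosourea, an alkylating carcinogen) into the bladder weekly for 10 weeks. The tumor and the adjacent normal groups came from the same 3 rats, so the adjacent tissue had received MNU too. The normal group is described in the design as bladder of 3 other, normal rats, although its sample labels carry the MNU text as well. These labels also give the age of 10 weeks. The study compared the 3 groups to find expression changes in bladder cancer, and neither the labels nor the methods say how much of the bladder wall a sample held.

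The respiratory chain sits in the inner mitochondrial membrane. Complexes I and II take electrons from NADH and succinate and pass them to ubiquinone, complex III passes them on to cytochrome c, and complex IV hands them to oxygen, while complex V uses the resulting proton gradient to make ATP. Most subunits are encoded in the nucleus and a few in mitochondrial DNA, and Ppargc1a, together with the factors NRF1, GABP (subunits Gabpa and Gabpb1), YY1 and the estrogen-related receptors, is known to drive their transcription.

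The samples were bulk tissue whose makeup differed between groups. Of 15 smooth muscle markers, 8 were lower in tumors and all 15 in adjacent tissue (limma, adjusted p under 0.05, where 18% and 18.9% of all probe sets passed). Their summed signal was 64.1%, 2.49% and 2.89% of the normal mean in tumors 1, 2 and 3 and 32.0%, 9.74% and 4.25% in adjacent samples 1, 2 and 3. None of them was dim in tumors or normal bladder as a group, and Kcnmb1 was under a signal of 50 on all adjacent arrays. Genes of dividing cells were higher in tumors (9 of 10) and in adjacent tissue (10 of 10), as were leukocyte markers (6 and 7 of 9) and basal epithelial markers (4 and 4 of 5). The part of these shifts in the values below was not tested, and fewer cells of a type cannot be told apart from less RNA per cell.

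Most of the 40 genes had nearly the same level in tumors and normal bladder. Uqcrc1, a core protein of complex III, was higher in tumors, and no other member passed by its brightest probe set, although the 2 dimmer probe sets of Ppargc1a passed as lower (limma with Benjamini-Hochberg adjustment, adjusted p under 0.05). That is 1 of 40 members, where 18% of all probe sets tested passed (5574 of 31042). The median difference was 0.04, with 25 genes above 0 and 15 below, and the values ran from -3.04 (Cox6a2) to 0.54 (Cox7a1). For 35 of the 40 genes the whole 95% confidence interval of the difference lay within 2-fold.

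The contrast with other well-expressed genes was plain in the counts. Of the members, 34 had a mean log2 signal over 10, a limit chosen after the data were seen. None of these 34 differed by more than 2-fold between tumors and normal bladder, all 34 intervals lay within 2-fold, and 1 passed the test. Among all 3649 genes over that limit, 32.6% passed the test and 15.3% differed by more than 2-fold. Their median difference was 0.17, against 0.05 for the 34 members. All 3 tumor arrays lay above or below all 3 normal arrays for 5 of the 40 members (Uqcrc1, Uqcrq and Cox5a above, Cox4i1 and Ppargc1a below), compared with 39.2% of all probe sets.

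In adjacent tissue, Ppargc1a was lower than in normal bladder and no subunit gene passed the test. An unadjusted p under 0.05 (limma) was found for 5 of the 39 subunit genes and for 9954 of all 31042 probe sets. By adjusted p, 18.9% of all probe sets passed here, and 33.7% of the genes with a mean log2 signal over 10, of which 14% differed by more than 2-fold. The median difference of the members was -0.04, with 18 genes above 0 and 22 below, and all 34 bright members had intervals within 2-fold. The arrays of the groups did not overlap for 15 members, 6 of them above normal (Ndufb5, Sdha, Uqcrc1, Uqcrc2, Cox5a and Atp5f1a) and 9 below (Ndufa2, Ndufb8, Ndufs4, Ndufs7, Cox4i1, Cox8a, Atp5f1b, Atp5f1c and Ppargc1a). Among all probe sets this share was also 39.2%. Both comparisons use the same 3 normal arrays, so their values are given side by side and not as support for each other.

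**Figure D1:**
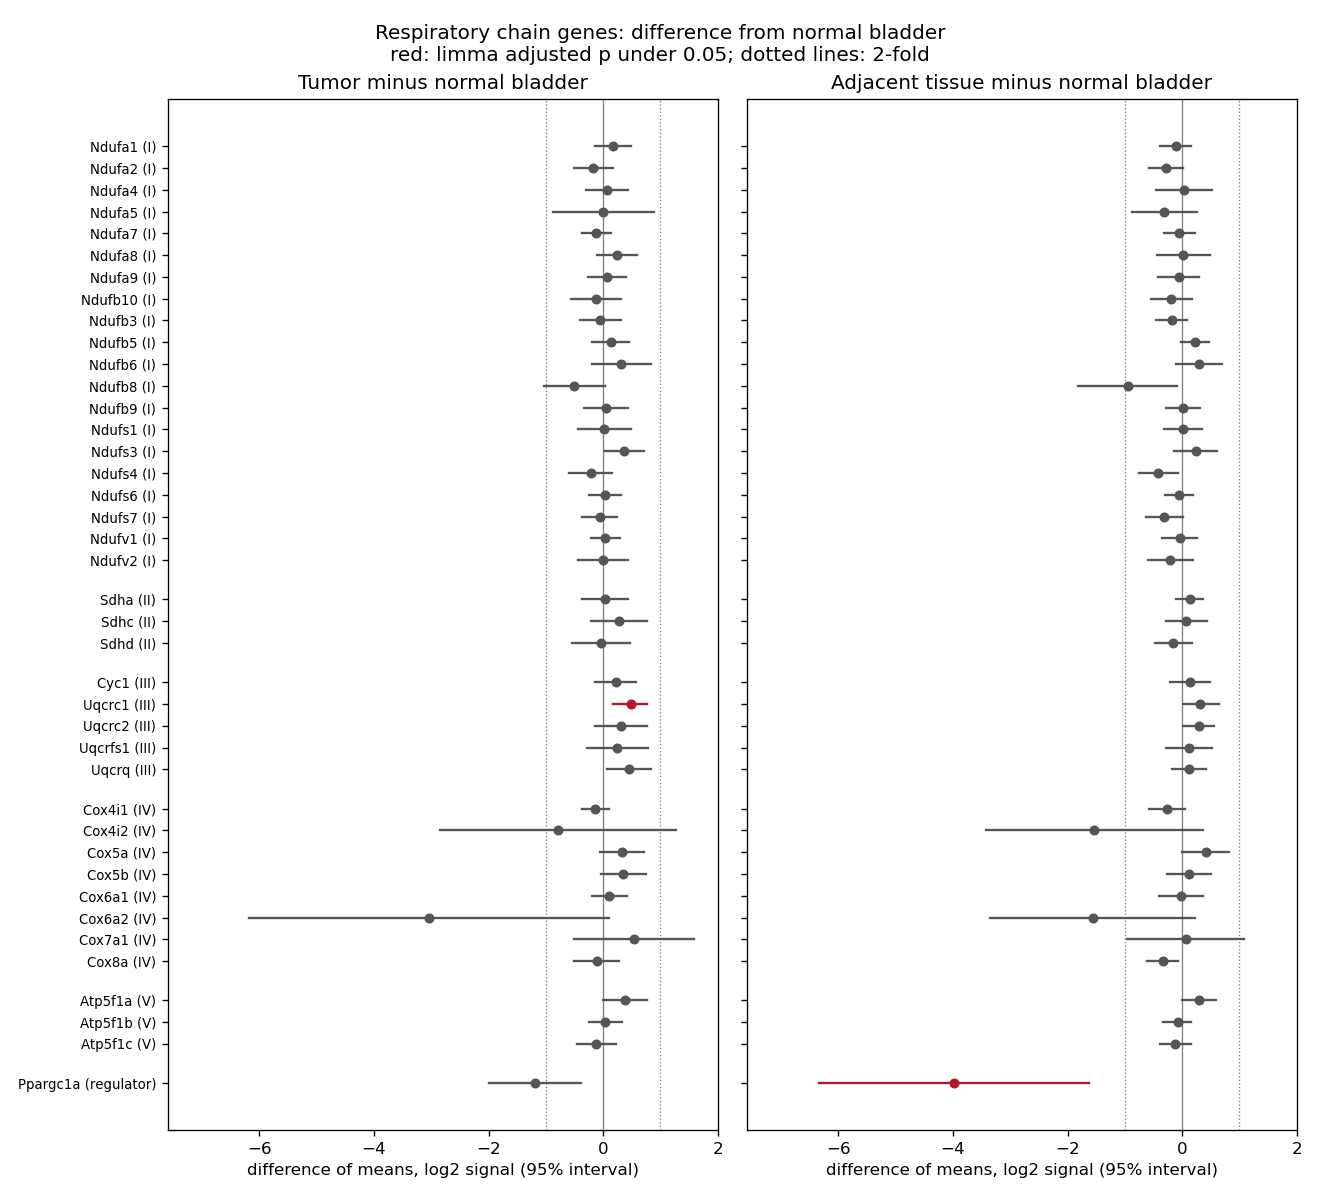
Difference of group means (x axis, log2 signal) for each of the 40 measured genes (y axis, complex in brackets), with the 95% interval from limma, for tumors (left) and adjacent tissue (right) against normal bladder, 3 arrays per group. Uqcrc1 in tumors (0.48) and Ppargc1a in adjacent tissue (-3.98), drawn in red, passed the adjusted threshold, most subunit intervals cross 0 inside the dotted 2-fold lines, and the dim genes Cox4i2, Cox6a2 and Cox7a1 have wide intervals.

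Tumors and adjacent tissue did not differ at the adjusted threshold in any member or in any of the 31042 probe sets (0% passed by limma, and 845 probe sets had an unadjusted p under 0.05). Among the members, 1 had an unadjusted p under 0.05 (Ppargc1a), and 0 passed under each alternative run. The median difference was 0.12, and 34 of 40 genes had the higher mean in tumors. The arrays did not overlap for 1 member (Cox7a1, higher in tumors), where 7.53% of all probe sets were separated.

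The direction of a difference this small depended on the scaling. Quantile normalization turned the tumor median of the members to -0.02, and centring each array on its median moved it to 0.24, against 0.37 for all genes with a mean log2 signal over 10. For adjacent tissue the medians were -0.09 and 0.16. Median centring raised the difference of all probe sets from -0.05 to 0.15 in tumors and from -0.09 to 0.12 in adjacent tissue, so the members stayed below the median of the other bright genes on each of these scales. With centred arrays, 6 of 40 members passed in adjacent tissue, of which Ndufb5, Uqcrc1, Uqcrc2, Cox5a and Atp5f1a were higher and Ppargc1a was lower, against 22.3% of all probe sets.

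Arrays of 1 group also differed among themselves. Tumor 1 had the lowest signal of the 3 tumors in 35 of 39 subunit genes, and adjacent sample 1 the lowest of its group in 28 of 39. The median subunit gene lay 0.16 below the normal mean in tumor 1 (-0.16), whereas it lay 0.28 and 0.15 above it in tumors 2 and 3. In adjacent samples 1, 2 and 3 the same median was -0.22, 0.04 and 0.01, and in the normal samples it was -0.07, -0.04 and 0.11. The low tumor and the low adjacent sample were also those with the most smooth muscle signal of their groups (64.1% and 32.0% of normal). The normal samples had more of it (98.6% to 103%), and their subunit medians were not as low. Any relation between the 2 signals was not tested. The summed signal of the 39 subunits was 89.7%, 123% and 113% of normal in tumors 1, 2 and 3 and 88.2%, 106% and 103% in adjacent samples 1, 2 and 3.

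The number of subunit genes that passed depended on tumor 1. Without it, 10 of 40 members differed from normal bladder, 9 higher and 1 lower, and 29.7% of all probe sets passed in the same fit (53.3% of genes with a mean log2 signal over 10). The 9 higher genes were Ndufb6, Ndufs3, Sdhc, Uqcrc1, Uqcrc2, Uqcrfs1, Uqcrq, Cox5b and Atp5f1a, with differences from 0.46 (Ndufs3) to 0.57 (Uqcrc1 and Uqcrq). The lower gene was Cox6a2 (fitted difference -4.61, adjusted p = 0.00474 by limma), but both remaining tumors were under a signal of 50, as was the normal mean (5.56), so no fold can be given. The share of the 40 members that passed (25%) lies beside 29.7% of all probe sets. The 53.3% covers bright genes only, whereas the 40 members include dim ones. The median difference was 0.21 for the bright members and 0.2 for all bright genes in this fit. Without adjacent sample 1, 3 members (7.5%) passed in adjacent tissue (Uqcrc1, Uqcrc2 and Atp5f1a, all higher), against 23.2% of all probe sets and 40.9% of genes with a mean log2 signal over 10. The medians of that fit were 0.07 for the bright members and 0.15 for all bright genes.

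**Figure D2:**
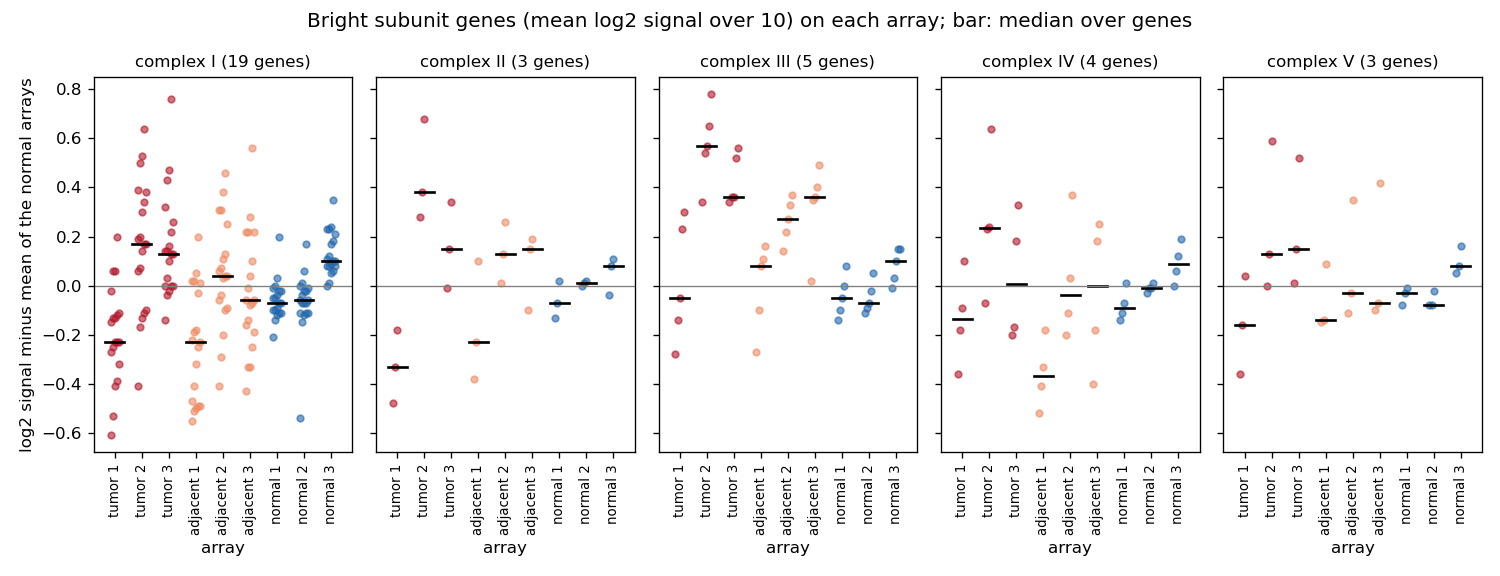
Signal of each bright subunit gene (mean log2 signal over 10) on each array, as the log2 difference from the mean of the 3 normal arrays (y axis), by complex, with points for genes and bars for medians over genes. Tumor 1 and adjacent sample 1 are low in most panels, and the complex III genes of tumors 2 and 3 all lie above the normal mean, with medians of 0.57 and 0.36.

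**Figure D3:**
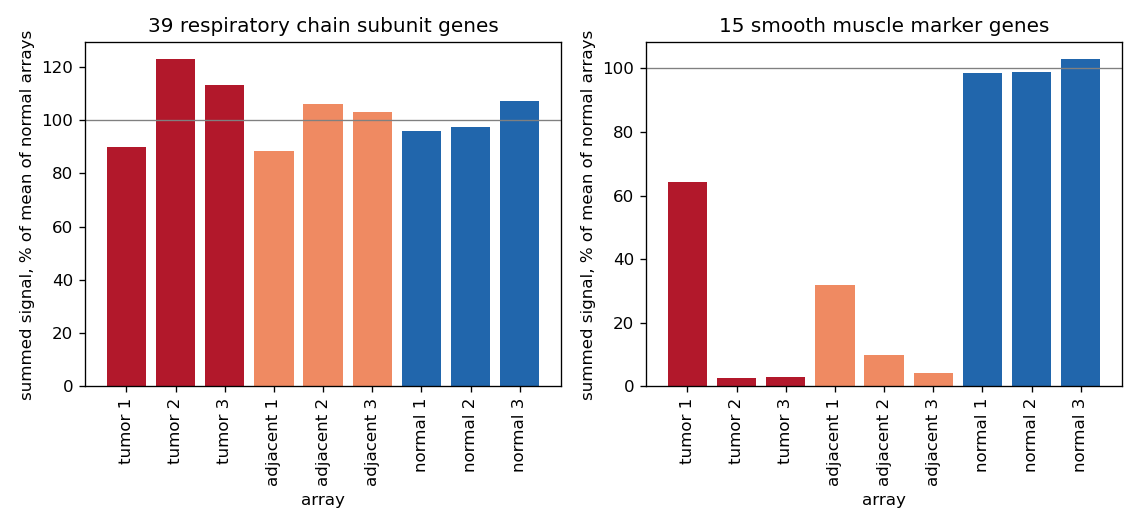
Summed linear signal of the 39 subunit genes (left) and of 15 smooth muscle markers (right) on each array, as a percentage of the mean of the 3 normal arrays (y axis). The subunit sum stays between 88.2% and 123% while the smooth muscle sum falls to 2.49% in tumor 2.

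Complex I, which oxidizes NADH, had 20 measured genes, and none passed the test in any comparison. The median difference was 0.03 in tumors and -0.06 in adjacent tissue. Core subunits that carry the flavin and the first iron-sulfur clusters were close to normal: Ndufv1 differed by 0.03 in tumors and -0.04 in adjacent tissue, Ndufv2 by 0.00 and -0.21, and Ndufs1 by 0.02 and 0.02. The other core subunits were Ndufs7 (-0.05 and -0.31) and Ndufs3 (0.37 and 0.24). Ndufs3 had the highest tumor difference of the complex, with signals of 11.03, 11.33 and 11.26 in tumors, 10.88, 11.29 and 11.05 in adjacent tissue and 10.76, 10.68 and 11.07 in normal bladder. Tumor 1 (11.03) lay under normal sample 3 (11.07), so the groups overlapped, and the adjusted p was 0.126 (SE 0.15, 95% interval 0.03 to 0.72, limma).

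Ndufb8, an accessory subunit of the membrane arm, had the lowest difference of the complex in both tissues. Its signals were 8.35, 8.89 and 9.11 in tumors, 7.40, 8.82 and 8.78 in adjacent tissue and 9.05, 9.32 and 9.49 in normal bladder. All adjacent arrays lay below all normal arrays, and 1 tumor overlapped with normal. The difference was -0.50 in tumors (SE 0.23, interval -1.04 to 0.03, adjusted p = 0.175) and -0.95 in adjacent tissue (SE 0.37, interval -1.82 to -0.09, adjusted p = 0.121, limma), and the latter was -0.49 without adjacent sample 1 (adjusted p = 0.0896). Ndufb8 was also the highest of the complex in tumors against adjacent tissue (0.45, SE 0.42) and Ndufb5 the lowest (-0.09, SE 0.16).

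The remaining accessory subunits of complex I ran from -0.22 (Ndufs4) to 0.32 (Ndufb6) in tumors. In adjacent tissue Ndufb6 was the highest of the complex (0.29, SE 0.17, adjusted p = 0.301), and Ndufs4, needed for assembly of the NADH-oxidizing arm, differed by -0.42 (SE 0.15, adjusted p = 0.087, limma). All 3 adjacent arrays lay below the normal arrays for Ndufs4 (9.75, 9.85 and 9.93 against 10.05, 10.43 and 10.32). Ndufa4, which is listed here by its name and is now counted with complex IV, differed by 0.06 and 0.04. Of the others, the tumor and adjacent differences were 0.18 and -0.11 for Ndufa1, -0.17 and -0.28 for Ndufa2, 0.00 and -0.31 for Ndufa5 and -0.12 and -0.05 for Ndufa7. For Ndufa8 they were 0.24 and 0.02, for Ndufa9 0.06 and -0.06, for Ndufb3 -0.05 and -0.18 and for Ndufb5 0.14 and 0.22. Ndufb9 (0.05 and 0.01), Ndufb10 (-0.12 and -0.19) and Ndufs6 (0.03 and -0.06) complete the complex, so 12 of its genes had the higher mean in tumors and 7 in adjacent tissue.

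Complex II, or succinate dehydrogenase, links the chain to the citric acid cycle. Its 3 measured genes did not pass the test, with a median difference of 0.03 in tumors and 0.07 in adjacent tissue. Sdha, the flavoprotein that binds succinate, had signals of 11.53, 12.14 and 12.01 in tumors, 11.96, 11.99 and 12.01 in adjacent tissue and 11.88, 11.87 and 11.82 in normal bladder. The adjacent arrays lay just above the normal arrays, and the tumors lay on both sides. Its difference was 0.03 in tumors (SE 0.17, adjusted p = 0.913) and 0.13 in adjacent tissue (SE 0.10, adjusted p = 0.441, limma).

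Sdhc and Sdhd anchor the enzyme in the membrane. Sdhc had the highest tumor difference of the complex (0.28, SE 0.21, interval -0.22 to 0.77, adjusted p = 0.41) and differed by 0.07 in adjacent tissue. Sdhd had the lowest, at -0.03 in tumors (SE 0.21, adjusted p = 0.935) and -0.16 in adjacent tissue (SE 0.14, adjusted p = 0.498), and its second probe set gave 0.26 and -0.16. Between tumors and adjacent tissue, Sdhc was highest (0.21, SE 0.25) and Sdha lowest (-0.10, SE 0.19). Tumor 1 was the lowest of the 3 tumors in all 3 genes.

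All 5 measured members of complex III, the cytochrome bc1 complex, had a higher mean than normal bladder in both tissues. The small subunits Uqcrh, Uqcr10 and Uqcr11, outside the list, differed by 0.11, 0.08 and -0.04 in tumors (SE 0.19, 0.13 and 0.16). In adjacent tissue they differed by 0.00, -0.04 and -0.09. These values are nearer to 0 than those of the 5 members, but the members were not tested against them. The median difference of the 5 members was 0.31 in tumors and 0.13 in adjacent tissue. It was 0.18 and 0.09 after quantile normalization and 0.51 and 0.33 after median centring. For all genes with a mean log2 signal over 10, the tumor medians were 0.17, 0.13 and 0.37 on these scales. Their adjacent medians were 0.14, 0.1 and 0.34, so complex III lay at the level of other bright genes in adjacent tissue and above it in tumors. Uqcrfs1 in adjacent tissue fell to -0.02 without adjacent sample 3. No test of the complex against the others was made.

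Uqcrc1, a core protein of the matrix side, was the subunit gene that passed the test. Its signals were 12.37, 12.64 and 12.63 in tumors, 12.18, 12.44 and 12.56 in adjacent tissue and 12.07, 11.96 and 12.17 in normal bladder. Every tumor and every adjacent array lay above every normal array. Uqcrc1 was 1.39-fold higher in tumors (0.48, SE 0.12, interval 0.18 to 0.77, adjusted p = 0.0397 by limma), and in adjacent tissue the difference was 0.32 (SE 0.14, interval 0.01 to 0.64, adjusted p = 0.148). The tumor call was close to the threshold. It was lost without tumor 2 or 3 or any 1 of the normal arrays (adjusted p = 0.0916 to 0.152), without a variance trend (0.126) and with the replicate number as a block (0.0866).

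Uqcrq, a small subunit of complex III, had signals of 12.72, 13.27 and 12.85 in tumors, 12.57, 12.76 and 12.51 in adjacent tissue and 12.44, 12.40 and 12.64 in normal bladder. The tumors lay above the normal arrays, and the adjacent arrays overlapped with them. The difference was 0.45 in tumors (SE 0.17, interval 0.07 to 0.84, adjusted p = 0.103) and 0.12 in adjacent tissue (SE 0.13, adjusted p = 0.576, limma), and Uqcrq was the highest of the complex between tumors and adjacent tissue (0.34, SE 0.19). Uqcrc2, the other core protein, differed by 0.31 (SE 0.19, adjusted p = 0.325) and 0.29 (SE 0.11, adjusted p = 0.128) from normal, and its dimmer second probe set by -0.12 and -0.02. Between tumors and adjacent tissue Uqcrc2 was the lowest (0.02, SE 0.21). The Rieske iron-sulfur protein Uqcrfs1 (0.24, SE 0.23 and 0.12, SE 0.18) and cytochrome c1, Cyc1 (0.22, SE 0.15 and 0.13, SE 0.15), did not pass either.

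The promoters of 4 genes are shown because they span the outcomes: Uqcrc1 was higher in tumors, Uqcrq lay above normal on all tumor arrays without passing, Sdha was near its normal level, and Ppargc1a was lower in adjacent tissue. Each line runs 5′ to 3′ from base -100 to base 20 of the annotated start (there is no base 0), from RefSeq on GRCr8, a build that the array files do not use. Capitals mark matches on either strand to GCGCANGCG (NRF1), TNAAGGTCA (estrogen-related receptors), CCGGAAGTG (GABP) or AANATGGCG (YY1). The windows lie at chr8:118468123-118468242 on the plus strand (Uqcrc1), chr10:38089959-38090078 on the minus strand (Uqcrq), chr1:30764453-30764572 on the plus strand (Sdha) and chr14:63634208-63634327 on the plus strand (Ppargc1a).
Uqcrc1: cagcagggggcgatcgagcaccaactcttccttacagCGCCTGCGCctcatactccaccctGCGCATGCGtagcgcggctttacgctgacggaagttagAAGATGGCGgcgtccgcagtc
Uqcrq: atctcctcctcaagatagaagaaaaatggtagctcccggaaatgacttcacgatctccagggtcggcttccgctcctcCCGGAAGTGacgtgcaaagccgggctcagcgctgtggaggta
Sdha: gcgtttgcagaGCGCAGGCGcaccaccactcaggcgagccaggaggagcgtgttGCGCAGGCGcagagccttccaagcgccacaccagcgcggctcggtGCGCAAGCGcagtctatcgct
Ppargc1a: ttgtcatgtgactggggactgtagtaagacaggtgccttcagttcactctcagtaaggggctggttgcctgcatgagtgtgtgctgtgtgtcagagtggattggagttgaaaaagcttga
Uqcrc1 held 2 NRF1 matches, the first starting at base -63 and the next at base -39, and 1 YY1 match starting at base -1. Uqcrq held 1 GABP match starting at base -22. Sdha held 3 NRF1 matches, whose first bases were -89, -46 and -1, and Ppargc1a held none of these letters in the whole stretch of 250 bases before and 50 after its start. No matches overlapped in these windows. A match is a description of letters and not a bound site.

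Across the list, 38 of the 44 genes had a promoter sequence. Within 250 bases before and 50 after the start, the NRF1 letters occurred in 7 of the 38 (18.4%), against 6.26% of 27457 promoters of the same length. The YY1 letters occurred in 10 (26.3%, against 3.33%), 8 of them among the 19 complex I promoters (42.1%). GABP letters occurred in 2, Uqcrq and Cox5b (5.26%, against 1.98%), and letters of the estrogen-related receptors in Sdhd alone (2.63%, against 1.15%). The NRF1 and YY1 letters were not particular to the members. Further subunits outside the list, assembly factors and mitochondrial ribosomal proteins held NRF1 letters in 31.6%, 22.0% and 22.2% of their promoters. For YY1 these shares were 18.4%, 14.6% and 22.2%. The YY1 letters contain ATG, so a match after the start can also be the start of translation, which was not distinguished. The 8 complex I genes with YY1 letters were Ndufa2, Ndufa7, Ndufa9, Ndufb8, Ndufs1, Ndufs4, Ndufs6 and Ndufs7, and none of them passed the test. Their tumor differences ran from -0.50 to 0.06.

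Complex IV, or cytochrome c oxidase, had 8 measured genes, none of which passed the test. The broadly expressed forms were bright, apart from Cox5a. Cox4i1 had signals of 13.0, 13.11 and 13.01 in tumors, 12.66, 13.07 and 13.0 in adjacent tissue and 13.19, 13.17 and 13.18 in normal bladder. All tumor and adjacent arrays lay below the normal arrays, by a small amount. The difference was -0.14 in tumors (SE 0.10, adjusted p = 0.399) and -0.27 in adjacent tissue (SE 0.14, adjusted p = 0.23, limma), and it turned to 0.07 in tumors after median centring. Cox8a differed by -0.11 in tumors and -0.34 in adjacent tissue (SE 0.12, interval -0.61 to -0.07, adjusted p = 0.0814), where all adjacent arrays lay below normal.

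Cox5a and Cox5b, both structural subunits, had higher means than normal in both tissues. The signals of Cox5a were 8.62, 8.80 and 8.87 in tumors, 8.96, 8.64 and 8.91 in adjacent tissue and 8.57, 8.50 and 8.22 in normal bladder, with no overlap between either tissue and normal. The differences were 0.33 (SE 0.16, adjusted p = 0.206) and 0.41 (SE 0.18, adjusted p = 0.165, limma), and the latter was the highest of the complex. Cox5b differed by 0.35 (SE 0.17, adjusted p = 0.196) and 0.12 (SE 0.17, adjusted p = 0.685). Cox6a1 was near normal in both (0.11 and -0.02).

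Cox4i2, Cox6a2 and Cox7a1 are forms of restricted tissue range, known from lung and pericytes, from striated muscle, and from muscle in general. All of them were near or under a signal of 50 (log2 5.64), below which arrays of 1 group spread widely. Cox6a2 had signals of 5.66, 0.67 and 1.23 in tumors, 4.69, 4.69 and 2.6 in adjacent tissue and 6.10, 4.39 and 6.19 in normal bladder. Tumor 1, the tumor with the most muscle signal, lay within the normal range, and the other tumors lay far below it. The difference was -3.04 in tumors (SE 1.34, interval -6.18 to 0.11, adjusted p = 0.166), -1.56 in adjacent tissue (SE 0.78, adjusted p = 0.212) and -1.47 between tumors and adjacent tissue (SE 1.39), the lowest of the complex each time, and without tumor 1 the fitted value was -4.61 with an adjusted p of 0.00474 (limma). Since the low tumors were dim and the normal mean (5.56) was under the limit too, these values give no fold. With all arrays in the fit each interval crossed 0 and the groups overlapped, so the direction was not settled either.

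The signals of Cox4i2 were 2.73, 5.67 and 5.21 in tumors, 3.35, 2.71 and 5.33 in adjacent tissue and 4.27, 6.14 and 5.56 in normal bladder. The groups overlapped, with differences of -0.79 (SE 0.88) and -1.53 (SE 0.82) from normal and 0.74 (SE 1.01) between tumors and adjacent tissue, and all adjacent arrays were dim. Cox7a1 had signals of 6.02, 6.55 and 6.64 in tumors, 5.91, 5.90 and 5.95 in adjacent tissue and 6.11, 5.02 and 6.45 in normal bladder. Tumors lay above adjacent tissue on every array, and both overlapped with normal. The difference of Cox7a1 was 0.54 in tumors (SE 0.44, interval -0.50 to 1.58, adjusted p = 0.447), 0.06 in adjacent tissue (SE 0.44) and 0.48 between them (SE 0.35). Its normal sample 2 was well below the other normal samples, and without that array the adjacent difference was -0.36. Among the markers of pericytes, 2 of 9 were lower in tumors and 4 of 9 in adjacent tissue, and of 12 skeletal muscle markers 4 and 5 were lower. The shares were 22.2% and 44.4% for pericytes and 33.3% and 41.7% for skeletal muscle. Of all genes with a probe set of their own, 23.5% and 24.8% passed, and of all probe sets 18% and 18.9%, so the tumor share of pericyte markers was near these. The summed skeletal muscle signal was 13.1% to 77.2% of normal in tumors, 18.2% to 23.7% in adjacent tissue and 82.3% to 121% in normal bladder, and that of pericyte markers 33.2% to 64.8%, 34.5% to 44.3% and 93.0% to 106%. The defining skeletal muscle genes Mb, Myh4, Myh7 and Actn3 were dim in tumors and in normal bladder. The part of muscle or pericytes in these isoform values was not tested.

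The balance between the restricted and the broad form was compared within each array for 2 pairs in 3 comparisons. Cox4i2 minus Cox4i1 shifted by -0.65 in tumors and -1.26 in adjacent tissue, with two-sided exact permutation p of 0.6 and 0.2. Cox6a2 minus Cox6a1 shifted by -3.15 and -1.55 (exact p of 0.2 and 0.3). Between tumors and adjacent tissue the shifts were 0.61 and -1.60 (exact p of 0.7 and 0.4). After adjustment over the 6 tests the exact p ran from 0.6 to 0.7, and 3 arrays against 3 cannot go below 0.1. Cox7a1 against Cox7a2 could not be run because Cox7a2 had no probe set of its own.

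Complex V, the ATP synthase, had 3 measured genes, the alpha, beta and gamma subunits of its catalytic head, and none passed the test. Atp5f1a (alpha) had signals of 12.79, 13.34 and 13.27 in tumors, 12.84, 13.10 and 13.17 in adjacent tissue and 12.74, 12.67 and 12.83 in normal bladder. The adjacent arrays lay above all normal arrays, and of the tumors only tumor 1 lay within the normal range. The difference was 0.39 in tumors (SE 0.17, adjusted p = 0.156) and 0.29 in adjacent tissue (SE 0.13, adjusted p = 0.163, limma), and Atp5f1a passed without tumor 1 (0.56, adjusted p = 0.00407).

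The other subunits of the head were nearer to normal. Atp5f1b (beta), the catalytic subunit, had signals of 13.33, 13.62 and 13.64 in tumors, 13.34, 13.46 and 13.42 in adjacent tissue and 13.46, 13.47 and 13.54 in normal bladder. Its difference was 0.04 in tumors and -0.08 in adjacent tissue (SE 0.12 and 0.11), and it was the highest of the complex between tumors and adjacent tissue (0.12, SE 0.15). Atp5f1c (gamma) was the lowest, at -0.12 in tumors (SE 0.15, adjusted p = 0.621), -0.12 in adjacent tissue (SE 0.12, adjusted p = 0.537) and 0.00 between them (SE 0.16).

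Ppargc1a, the coactivator of mitochondrial biogenesis, was the only member that passed as lower with all arrays in the fit, and by its brightest probe set it did so in adjacent tissue alone. Its brightest probe set had signals of 5.39, 6.18 and 6.01 in tumors, 2.23, 5.60 and 1.37 in adjacent tissue and 7.10, 6.63 and 7.42 in normal bladder. Every tumor and every adjacent array lay below every normal array. All adjacent arrays were under a signal of 50, so the level there was at least 2.65-fold lower than in normal bladder (fitted difference -3.98, SE 1.02, interval -6.34 to -1.63, adjusted p = 0.0309 by limma). The tumor difference of -1.19 (SE 0.34, interval -2.0 to -0.38) had an adjusted p of 0.0542. Between tumors and adjacent tissue it was 2.80 (SE 1.06, unadjusted p = 0.0317 and adjusted p = 1 by limma).

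The 2 dimmer probe sets of Ppargc1a gave lower signals in both tissues. The first had 5.0, 4.74 and 5.02 in tumors, 3.90, 4.64 and 1.72 in adjacent tissue and 6.23, 6.48 and 6.46 in normal bladder. It passed in tumors (-1.47, adjusted p = 0.0232) and in adjacent tissue (-2.97, adjusted p = 0.0299, limma), at least 1.67-fold lower in each. The second had 5.23, 4.53 and 5.64 in tumors, 0.00, 5.58 and 2.27 in adjacent tissue and 6.80, 6.95 and 7.58 in normal bladder, and passed in both as well (-1.97, adjusted p = 0.0185 and -4.49, adjusted p = 0.041, limma). All its adjacent arrays were dim, so the level there was at least 2.76-fold lower. No probe set overlapped between either tissue and normal. The adjacent call of the brightest probe set was lost without adjacent sample 1 or 3 or any 1 of the normal arrays (adjusted p = 0.053 to 0.115) and without a variance trend (0.0784).

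**Figure D4:**
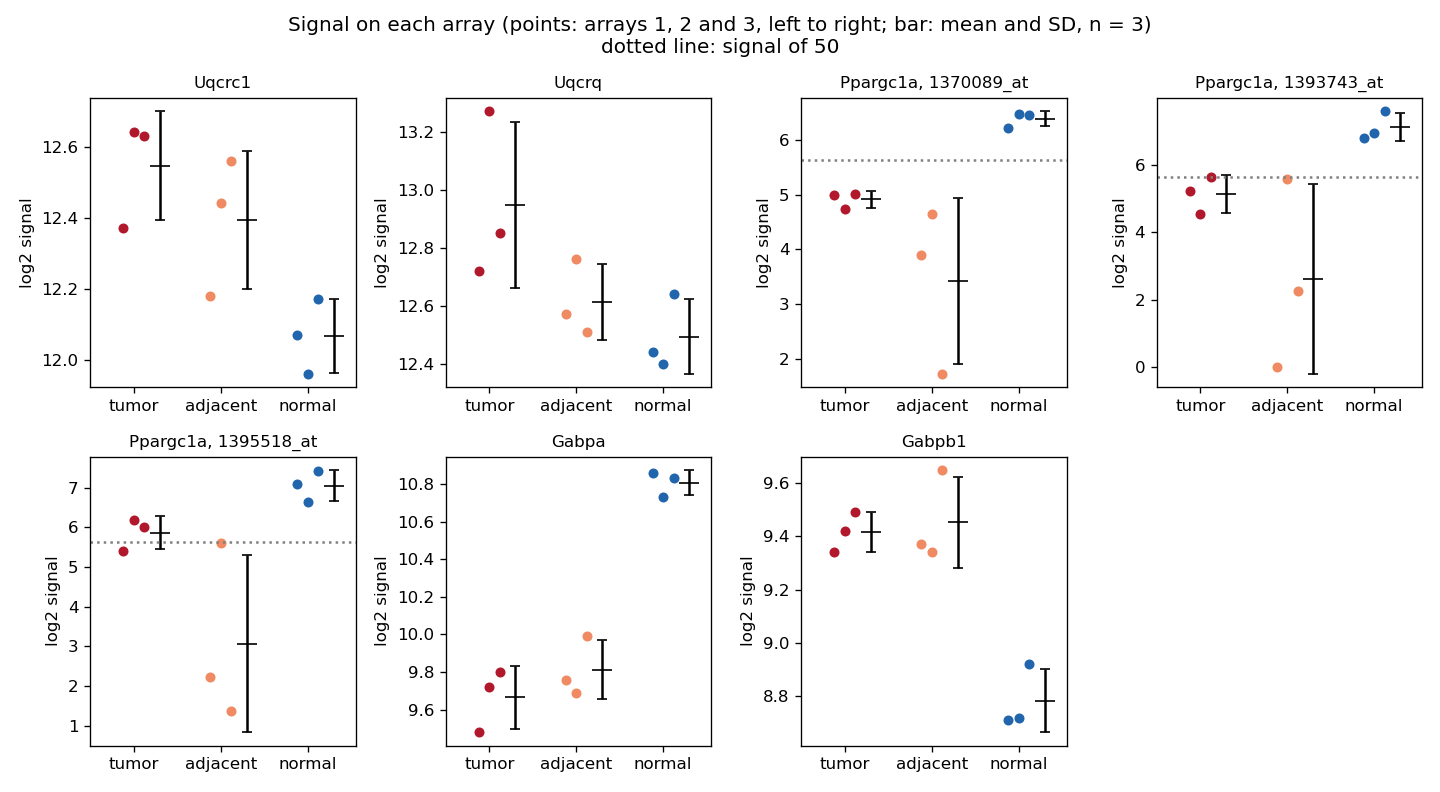
Log2 signal (y axis) on each of the 9 arrays for Uqcrc1, Uqcrq, the 3 probe sets of Ppargc1a, Gabpa and Gabpb1, with points for arrays and bars for the mean and SD of each group (n = 3). Uqcrc1 is higher and Ppargc1a lower than normal on every tumor and adjacent array, while Gabpa is lower and Gabpb1 higher in both tissues, and each panel has its own y range.

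Among 24 other regulators of mitochondrial genes and of mitochondrial DNA, 3 were higher and 1 lower in tumors, and 6 were higher and 1 lower in adjacent tissue. These shares (16.7% and 29.2%) lie beside 18% and 18.9% of all probe sets and 32.6% and 33.7% of genes with a mean log2 signal over 10. Gabpa, the DNA-binding subunit of GABP, had signals of 9.48, 9.72 and 9.80 in tumors, 9.76, 9.69 and 9.99 in adjacent tissue and 10.86, 10.73 and 10.83 in normal bladder. Both tissues lay below normal on every array, at 45.4% of normal in tumors (-1.14, SE 0.13, adjusted p = 0.0037) and 50.3% in adjacent tissue (-0.99, SE 0.13, adjusted p = 0.00286, limma). These calls held without each array in turn, with adjusted p of at most 0.0303. Its partner Gabpb1, chosen after its values were seen, had signals of 9.34, 9.42 and 9.49 in tumors, 9.37, 9.34 and 9.65 in adjacent tissue and 8.71, 8.72 and 8.92 in normal bladder. It was higher in both tissues (0.63, adjusted p = 0.0203 and 0.67, adjusted p = 0.0235, limma), and these calls were lost in 4 and in 3 of the 6 fits that leave out 1 array (adjusted p of up to 0.106).

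Of the genes known to act on mitochondrial DNA, the highest that passed in tumors were the helicase Twnk (0.94, SE 0.21, adjusted p = 0.0238) and the accessory polymerase subunit Polg2 (0.81, SE 0.17, adjusted p = 0.0213). In adjacent tissue the highest were the mitochondrial topoisomerase Top1mt (1.16, SE 0.22, adjusted p = 0.0108) and the polymerase Polg (1.10, SE 0.25, adjusted p = 0.02, limma), and Polg2 passed as well (1.05, SE 0.27, adjusted p = 0.0311). Polg and Top1mt did not pass in tumors (adjusted p = 0.0675 and 0.0764), Twnk did not pass in adjacent tissue (0.216), and the DNA-binding protein Ssbp1 differed by 0.01 and 0.00. The call of Polg was lost with averaged probe sets (adjusted p = 0.403), and that of Polg2 in adjacent tissue without adjacent sample 2 or any 1 normal array (up to 0.117). Twnk and Polg2 in tumors and Top1mt and Polg in adjacent tissue were each lost without some single arrays, with adjusted p of up to 0.0926 (Twnk, without any 1 normal array), 0.0893 (Polg2, without tumor 2 or 3 or normal sample 1 or 3), 0.0555 (Top1mt, without normal sample 1) and 0.0804 (Polg, without adjacent sample 2 or any 1 normal array). Tfam, which packs mitochondrial DNA, differed by 0.09 and 0.25 and did not pass. The 2 mitochondrially encoded subunits with a probe set of their own, COX1 and COX2 of complex IV, differed by 0.06 and 0.08 in tumors and by -0.19 and -0.15 in adjacent tissue, and did not pass either. Over the 24 regulators, 7 were higher in tumors without tumor 1, and 0 or 1 were higher in either tissue without any 1 normal array. Without a variance trend 0 were higher and 1 lower in tumors, and 1 higher and 2 lower in adjacent tissue.

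Of 38 further nuclear subunits of the chain that are outside the list, none passed in tumors. There 6 had an unadjusted p under 0.05 (limma), against 10167 of all 31042 probe sets. Without tumor 1, 15 were higher and 1 lower by adjusted p, where 29.7% of all probe sets passed. In adjacent tissue 3 (7.89%) were lower, against 18.9% of all probe sets. These were the complex I subunits Ndufa11 (-0.50, SE 0.14, adjusted p = 0.0397) and Ndufb4 (-0.47, SE 0.12, adjusted p = 0.0333, limma) and the testis-enriched complex IV form Cox6b2 (-1.37, SE 0.32, adjusted p = 0.0237). The calls of Ndufa11 and Ndufb4 were lost after median centring, and each of the 3 was lost without any 1 of the normal arrays (for Ndufa11 also without adjacent sample 1 or 2), with adjusted p of up to 0.152. The direction of the count turned as well, to 4 higher and 1 lower after median centring and to 5 higher and 2 lower without adjacent sample 1. Over the 38 genes the median difference was 0.07 in tumors and -0.06 in adjacent tissue.

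Of 42 assembly factors, 6 were higher and 1 lower in tumors, and 6 were higher in adjacent tissue. These shares (16.7% and 14.3%) lie beside 18% and 18.9% of all probe sets. Of all genes with a probe set of their own, 23.5% and 24.8% passed. Median centring gave 13 higher in adjacent tissue. Pet100, which helps to build complex IV, was 9.78, 10.06 and 9.97 in tumors, 9.55, 9.74 and 10.09 in adjacent tissue and 8.82, 8.37 and 8.77 in normal bladder. It was higher on every tumor and adjacent array, by 1.28 (SE 0.17, adjusted p = 0.00532) and 1.14 (SE 0.20, adjusted p = 0.00766, limma), and it passed without each array in turn. The other complex IV factors named by size were Coa7 in tumors (1.66, adjusted p = 0.0231) and Cox14 in adjacent tissue (0.92, adjusted p = 0.00348), and the complex III factor Uqcc1 fell in tumors (-0.79, adjusted p = 0.0115). Cox14 passed without each array, whereas Coa7 was lost without tumor 2 or 3 or normal sample 1 or 2 and Uqcc1 without normal sample 2 or 3 (adjusted p of up to 0.081), and both were lost with averaged probe sets. Without tumor 1 the tumor counts were 14 higher and 2 lower, and without any 1 normal array they were 1 or 2 higher and 0 or 1 lower. The 6 higher genes of adjacent tissue became 2 without any 1 normal array, and also 2 without a variance trend, which left 1 higher and 1 lower in tumors.

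Mitochondrial ribosomal proteins, which make the mitochondrially encoded subunits, had 7 of 44 genes higher in tumors, and 4 higher and 1 lower in adjacent tissue. These shares (15.9% and 11.4%) lie beside 18% and 18.9% of all probe sets. Of all genes with a probe set of their own, 23.5% and 24.8% passed. Median centring gave 13 higher and 0 lower in adjacent tissue. The largest rises were Mrps11 (0.77, adjusted p = 0.0334) and Mrps2 (0.72, adjusted p = 0.0107) in tumors and Mrps2 (0.69, adjusted p = 0.0154) and Mrpl12 (0.65, adjusted p = 0.0127) in adjacent tissue, where Mrps28 was lower (-0.70, adjusted p = 0.0423, limma). Leaving out any 1 normal array left 0 of the 44 in tumors, leaving out tumor 1 gave 19 higher and 1 lower, and in adjacent tissue 0 to 2 genes were higher without any 1 normal array. The mean of the 3 Mrps2 probe sets differed by -0.06 in adjacent tissue.

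Import, carrier and membrane-shaping proteins had 7 of 26 genes higher in tumors, and 6 higher and 2 lower in adjacent tissue. These shares (26.9% and 30.8%) lie between those of all probe sets (18% and 18.9%) and of genes with a mean log2 signal over 10 (32.6% and 33.7%). Median centring gave 10 higher and 0 lower in adjacent tissue. The import channel Tomm40 (0.76, adjusted p = 0.0133) and the ADP/ATP carrier Slc25a5 (0.75, adjusted p = 0.0242) rose most in tumors, and the import receptor Tomm70 (0.68, adjusted p = 0.0101) and the chaperonin Hspd1 (0.66, adjusted p = 0.00771) rose most in adjacent tissue. The fusion protein Mfn2 (-0.60, adjusted p = 0.0317) and Slc25a4, the ADP/ATP carrier of heart and muscle (-0.53, adjusted p = 0.0139, limma), fell in adjacent tissue, and both calls were lost after median centring. Of these, Hspd1 passed without each array in turn, and the other calls were lost without some normal arrays (Slc25a5 in tumors also without tumor 2 or 3) (adjusted p of up to 0.118). In tumors 12 genes were higher and 1 lower without tumor 1, and at most 1 was higher without any 1 normal array. Tomm70 was also lost with averaged probe sets (adjusted p = 0.331). Without a variance trend none of the 26 genes passed in either tissue (Hspd1 at 0.0582 in adjacent tissue), and none of the 44 ribosomal proteins did.

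**Figure D5:**
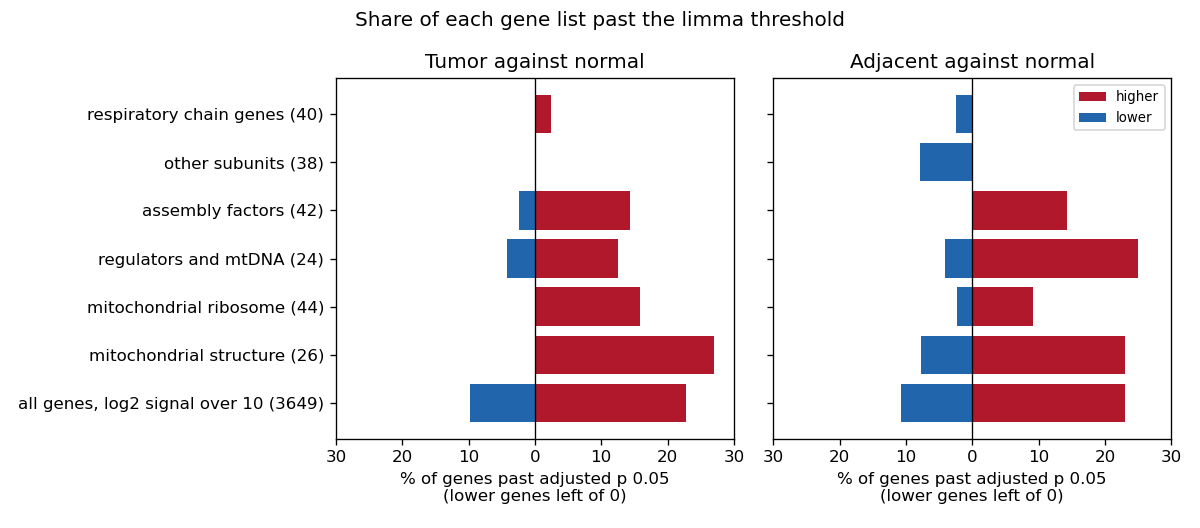
Share of each gene list that passed the adjusted threshold (x axis, percent, higher genes to the right and lower genes to the left of 0) in tumors (left) and adjacent tissue (right) against normal bladder, with the number of genes in brackets. The respiratory chain genes (1 of 40 in each comparison) and the other subunits (0 and 3 of 38) have shorter bars than all genes with a mean log2 signal over 10 (32.6% and 33.7%), drawn at the bottom. The 1 gene is the subunit gene Uqcrc1 in tumors and the coactivator gene Ppargc1a in adjacent tissue. Of all genes with a probe set of their own, 23.5% and 24.8% passed, which is not drawn.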

How the data were processed

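RNA of 9 rat tissue samples (3 per group) had been hybridised to Affymetrix rat arrays. The deposited values are log2 signals that the authors had made with the MAS 5.0 algorithm, and the mean signal after trimming 2% at either end was the same to within 1 unit on the arrays (498.0 to 498.8), so no scaling was added. The array files hold no genome build or coordinates, and the promoter sequences come from RefSeq on GRCr8. After leaving out 57 control probe sets, 31042 were tested. The annotation names 1 gene for 20826 of them, several for 436 and none for 9780.

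Each pair of groups was fitted with limma 3.58.1 in R 4.3.3 (lmFit, and eBayes with a variance trend), without the third group because tumors and adjacent tissues share rats. Benjamini-Hochberg adjustment covered all probe sets, with a threshold of 0.05. The scripts were tested on simulated data in which every group had the spread of the normal arrays. Among genes with a mean log2 signal over 10, the median SD was 0.22 in tumors, 0.22 in adjacent tissue and 0.09 in normal bladder. The simulation did not cover this unequal spread. The number of arrays limits the precision. The labels do not say that samples were processed separately, so p-values measure the spread between these samples. Signals under 50 were called dim, a limit chosen once the spread was known. Where a group was dim on all of its arrays, the other group's mean divided by 50 gave a lower bound on the fold.

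The members, the other gene lists and the marker lists were chosen with earlier results of these data known. Statistics are given for members past the threshold, the highest and the lowest member of each complex in each comparison, the isoform pairs and Ppargc1a, and, of each other list, for the 2 highest and 2 lowest genes past the threshold. Members outside this rule were described because all members were listed, and Ndufb4, Gabpb1 and Tfam were added after their values were seen. Alternatives were quantile normalization, median centring, a filter at the 40th percentile, 50 added before log2, no variance trend, 1 fit of the 9 arrays, a block for the replicate number, the omission of each array, averaged probe sets per gene, and the t-test that the study's methods name. The probe-level intensity files, the cell line experiments and the human tissues of the study were not used here.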

Additional observations from a re-analysis of the deposited data

How the results depend on the processing

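The number of members that passed in tumors against normal bladder (1 of 40) was 2 with 50 added before log2 and 2 with averaged probe sets, 0 without a variance trend, 0 with the replicate block, and 3 by the methods' t-test (0 after Benjamini-Hochberg). Leaving out 1 array gave 0 to 10, the latter without tumor 1. In adjacent tissue (1 of 40) it was 6 with median-centred arrays, whose median difference moved to 0.16, 0 without a variance trend, 7 by the methods' t-test (0 after adjustment) and 0 to 3 without 1 array. Tumors against adjacent tissue gave 0 under every alternative run, the replicate block included.

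Single values changed sign, and none of the members among them had passed. Not all of these values were near 0, since Cox4i2 in tumors was -0.79 and Ndufb8 between the tissues 0.45. With arrays centred on their medians, the tumor values of Sdhd, Cox4i1 and Atp5f1c became 0.17, 0.07 and 0.08, the adjacent values of Sdhd, Cox6a1 and Atp5f1c 0.04, 0.18 and 0.08, and Atp5f1c in tumors against adjacent tissue 0.00. Quantile normalization turned Cox6a1 in tumors and Uqcrc2 against adjacent tissue to -0.02 each. With mean probe sets Sdhd in tumors was 0.12, Uqcrc2 against adjacent tissue -0.03 and Mrps2 in adjacent tissue, which had passed, -0.06. Leaving out 1 array moved further values across 0. In tumors they were Sdhd (-0.24 to 0.19), Cox4i2 (-1.35 to 0.11), Atp5f1c (-0.18 to 0.00) and Cox4i2 minus Cox4i1 (-1.18 to 0.23). In adjacent tissue they were Cox6a1 (-0.15 to 0.14), Uqcrfs1 (-0.02 to 0.31) and Cox7a1 (-0.36 to 0.36). Between the tissues they were Ndufb5 (-0.18 to 0.04), Ndufb8 (-0.02 to 0.69), Sdha (-0.22 to 0.09), Uqcrc2 (-0.10 to 0.24), Cox6a1 (-0.03 to 0.26), Atp5f1c (-0.06 to 0.12) and Cox4i2 minus Cox4i1 (-0.01 to 1.49). The causes were not tested.

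Tumor and adjacent samples share replicate numbers, but the labels do not say that a number marks a rat. The deviations from the group means of samples with the same number correlated at 0.24, 0.044 and 0.137 over all probe sets. Tumors 1 and 3 correlated best with the adjacent sample of their own number, and tumor 2 with adjacent sample 3 (0.106). Whether the numbers mark rats was not settled by these values, and they were not taken as pairs.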
